A study of Mus musculus with 18 samples.

Results

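The genes followed were Lhcgr, Nr5a1, Scarb1, Star, Cyp11a1, Cyp17a1, Hsd3b1, Hsd3b6, Hsd17b3 and Insl3. They were chosen by symbol as steroid and hormone genes of the Leydig cell, and all 10 were found among the 46418 gene symbols present in all 18 libraries. The libraries hold poly(A) RNA of male C57BL/6J mice, 3 biological replicates in each of 6 groups. Zfp541-/- (KO) mice are set against Zfp541+/- (Het) controls, so no wild-type group enters any comparison. The groups are spermatocytes isolated at P18 (postnatal day 18), whole testis at P18 and whole testis at P14, each as KO and as Het. Neither the way the spermatocytes were isolated nor whether a replicate was 1 animal or a pool is given in the sources used here.

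Leydig cells lie between the seminiferous tubules and make testosterone. Luteinizing hormone acts on them through its receptor, cholesterol is taken up and carried into the mitochondrion, and a chain of enzymes turns it into androgen. In the mouse a fetal population present at birth is followed after birth by an adult population, and Hsd3b6 and Hsd17b3 are commonly used as marks of the adult cells, while Hsd3b1 is made by both.

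The promoter windows of Insl3, Hsd3b6 and Hsd3b1 are shown because the first and second were higher at P18 than at P14 in both genotypes, while the third, which lies beside Hsd3b6 on chromosome 3, was not in Het. Each window is a RefSeq sequence of GRCm38.p6, 250 bases before and 50 bases after an annotated start site, written 5′ to 3′ on the strand of the gene. Capitals mark the letters CAAGGNC (the half-site bound by the Nr5a1 protein) and TATAA, each searched on both strands. Where TATAA was found on both strands the matches overlap.
Insl3, chr8:71689002-71689301, plus strand: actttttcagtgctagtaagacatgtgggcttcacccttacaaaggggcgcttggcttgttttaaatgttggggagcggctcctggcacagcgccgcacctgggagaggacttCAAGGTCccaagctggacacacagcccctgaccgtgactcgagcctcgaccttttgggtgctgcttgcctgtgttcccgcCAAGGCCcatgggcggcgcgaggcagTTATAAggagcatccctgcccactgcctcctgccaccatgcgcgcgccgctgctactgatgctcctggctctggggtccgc
Hsd3b6, chr3:98814394-98814693, minus strand: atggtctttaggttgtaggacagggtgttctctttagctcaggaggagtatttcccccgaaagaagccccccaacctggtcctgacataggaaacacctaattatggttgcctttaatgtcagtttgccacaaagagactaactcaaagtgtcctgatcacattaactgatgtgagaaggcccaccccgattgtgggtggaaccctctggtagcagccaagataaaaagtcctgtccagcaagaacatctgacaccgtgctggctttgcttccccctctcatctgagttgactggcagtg
Hsd3b1, chr3:98859745-98860044, minus strand: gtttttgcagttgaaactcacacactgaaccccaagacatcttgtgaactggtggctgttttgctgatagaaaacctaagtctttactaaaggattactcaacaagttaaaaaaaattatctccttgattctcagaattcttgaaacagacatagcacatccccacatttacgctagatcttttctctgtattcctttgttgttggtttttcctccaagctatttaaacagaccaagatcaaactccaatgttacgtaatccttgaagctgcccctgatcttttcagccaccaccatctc
Insl3 held CAAGGNC 2 times, beginning at positions -137 and -57 counted from the start site, and TATAA at -31 and -30. Neither motif was found in the Hsd3b6 or the Hsd3b1 window. RefSeq windows were matched for 6 of the 10 genes, 7 windows in all, and CAAGGNC was in 1 of those 7 and TATAA in 2. Among 32851 RefSeq windows of the same length, 17.8% held CAAGGNC and 24.9% held TATAA, so these matches describe the letters and no more.

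Libraries held between 9.26 and 18.3 M reads (megareads) for spermatocytes, between 12.8 and 16.9 M for P18 testis and between 17.96 and 21.1 M for P14 testis, from totals read back from the deposited values. Levels below are the deposited values, RPKM at P14 and in spermatocytes and FPKM in P18 testis, rescaled between the libraries of a set. Zfp541, the targeted gene, checked the labels. It averaged 12.5 ± 0.977 in KO and 42.7 ± 12.3 in Het spermatocytes, 10.2 ± 1.07 in KO and 25.3 ± 4.76 in Het P18 testis, and 4.04 ± 0.937 in KO and 8.66 ± 0.945 in Het P14 testis (SD, n = 3 each). Every KO library lay below every Het library of its set, although at P14 the adjusted p was 0.083 (limma). Zfp541 RNA was therefore reduced and not absent in KO libraries.

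Some of the 10 genes share exon sequence with neighbours or relatives. Of the 623 exon bases of Insl3, 404 (64.8%) also lie in an annotated exon of Jak3, a kinase gene on the same strand. Jak3 was assigned 1201, 1272 and 1055 reads in KO and 913, 1022 and 1111 reads in Het P18 testes, against 1181, 1222 and 1044 (KO) and 862, 970 and 1074 (Het) for Insl3. Reads in the shared part cannot be given to either gene, so Insl3 values are uncertain to that extent. Of all 50-base words in the transcripts of Hsd3b6, 15.6% also occur in another gene, mostly Hsd3b2, a relative whose P18 testis levels averaged only 0.0755 (KO) and 0.0669 (Het). The share was 4.86% for Hsd3b1, 2.06% for Cyp11a1 and at most 0.0703% for each of the other 6 genes.

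In whole testis all 10 genes were measured in every group. Insl3, which encodes a peptide hormone that drives testis descent, was the highest of the 10 in all 4 testis groups. At P18 it averaged 124 ± 12.3 FPKM in KO and 103 ± 5.65 FPKM in Het testes (SD, n = 3 each). Lhcgr, the receptor for luteinizing hormone, was the lowest, at 2.74 ± 0.503 FPKM in KO and 1.95 ± 0.247 FPKM in Het testes at P18. In both genotypes the order at P18 was Insl3, Hsd3b6, Hsd3b1, Nr5a1, Scarb1, Cyp17a1, Star, Cyp11a1, Hsd17b3, Lhcgr. Several neighbours in that order did not differ beyond their spread. In P18 Het testes Hsd3b6 (28.8 ± 4.89), Hsd3b1 (25.6 ± 1.86) and Nr5a1 (25.3 ± 3.87) overlapped, as did Scarb1 (15.3 ± 1.22), Cyp17a1 (13.3 ± 6.02) and Star (11.2 ± 5.25).

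**Figure D1:**
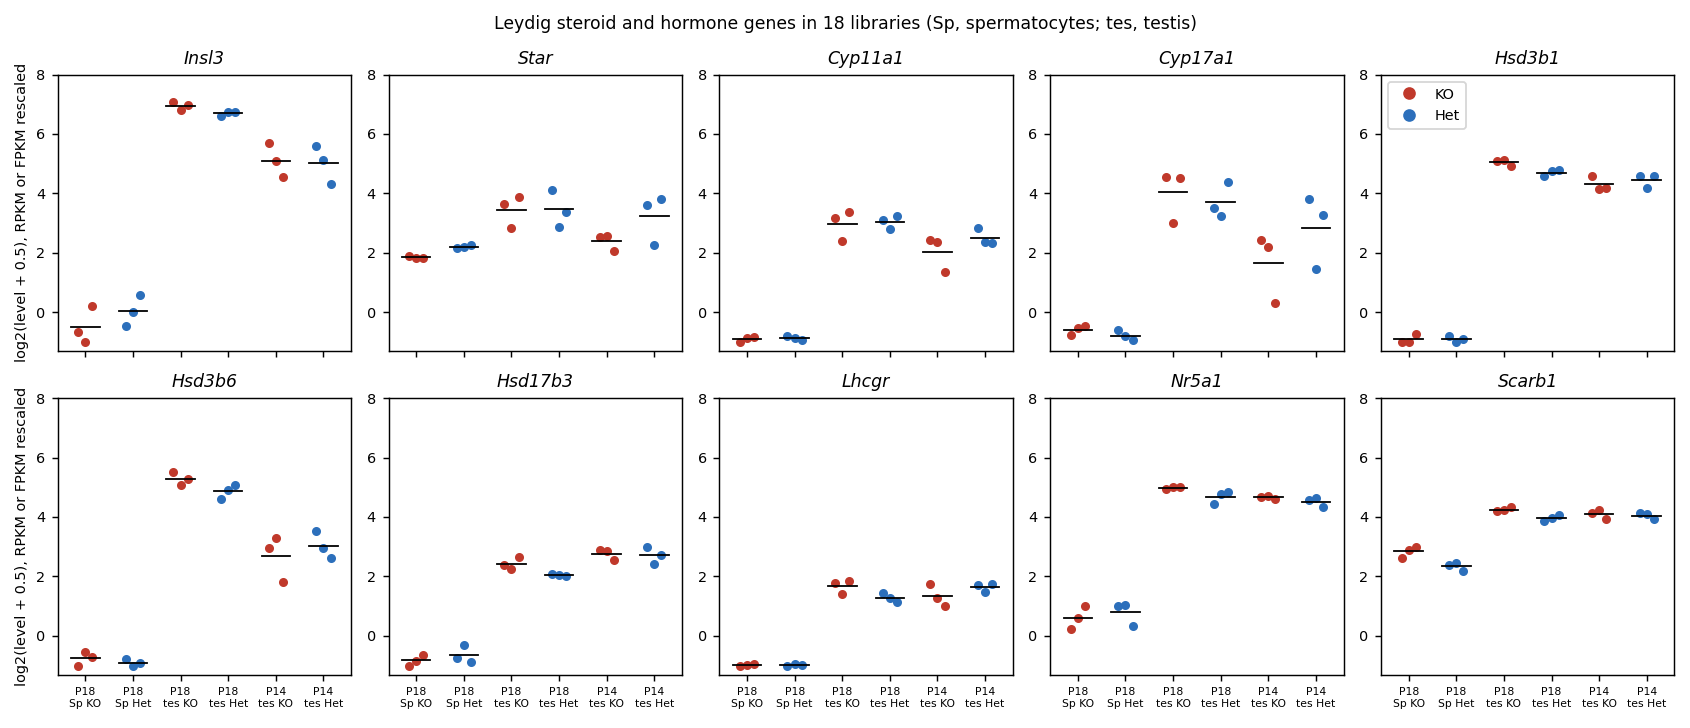
Each panel plots 1 gene; the y axis is log2 of the rescaled RPKM or FPKM plus 0.5, points are libraries, bars are group means, and KO is red and Het blue. All 10 genes are lower in spermatocytes (Sp) than in testis (tes) at P18, and Insl3 and Hsd3b6 stand higher at P18 than at P14 in testis.

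The isolated spermatocytes held little RNA of most of these genes, a measure of how far the isolation removed Leydig transcripts. All 10 were lower in spermatocytes than in testis at P18 in both genotypes, with adjusted p at most 0.000603 in KO and 0.0051 in Het (limma, 1 fit of the 12 P18 libraries). Of the 19979 genes tested, 39.6% were lower in KO and 32.9% in Het spermatocytes. Because testis values are FPKM and spermatocyte values RPKM, a difference in the authors' counting and the fraction cannot be told apart. Read counts show the size of the drop better than the log2 values, which are held up by the added 0.5.

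The lower group of 7 genes was nearly lost. Together Insl3, Cyp11a1, Cyp17a1, Hsd3b1, Hsd3b6, Hsd17b3 and Lhcgr had 49 reads in the 3 KO spermatocyte libraries, which is 0.403% of their testis level (95% exact interval 0.298% to 0.533%). In the 3 Het libraries they had 48 reads, or 0.504% of the testis level (0.372% to 0.669%). The lowest share in KO was that of Hsd3b1, with 3 reads and 0.128% of the testis level (0.0264% to 0.375%). The lowest in Het was that of Hsd3b6, with 3 reads and 0.156% (0.0322% to 0.458%). Intervals of this kind cover counting error only.

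The other 3 genes remained at higher shares. Scarb1, the receptor that takes up cholesterol from lipoproteins, kept 36.9% of its testis level in KO (interval 35.1% to 38.7%) and 31.6% in Het (29.8% to 33.4%), on 2223 and 1507 reads. Star, which carries cholesterol to the inner mitochondrial membrane, kept 29.7% in KO (26.9% to 32.8%) and 39.2% in Het (35.9% to 42.8%). Nr5a1, a nuclear receptor that drives transcription of many steroid genes, kept 3.54% in KO and 5.15% in Het, with intervals that overlapped those of Hsd17b3. The percentages of Scarb1 and Star thus lay far above those of the 7 genes in the same libraries.

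Nr5a1 is also made by Sertoli cells, the supporting cells of the tubule, and its share can be read beside theirs. By summed reads, 18 Sertoli markers kept 8.84% of their testis level in KO and 11.25% in Het, above the 3.54% and 5.15% of Nr5a1. On the log2 scale the difference of Nr5a1 between spermatocytes and testis was -4.36 in KO and -3.78 in Het. The median over the 18 Sertoli markers was -4.71 in KO and -3.86 in Het, and 17 of the 18 were lower in each genotype. The median over 11 macrophage markers was -2.21 in KO and -1.50 in Het, and that over 10 markers of peritubular myoid cells -0.39 in KO and -0.01 in Het. Their part in the Scarb1, Star and Nr5a1 signal was not tested.

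**Figure D2:**
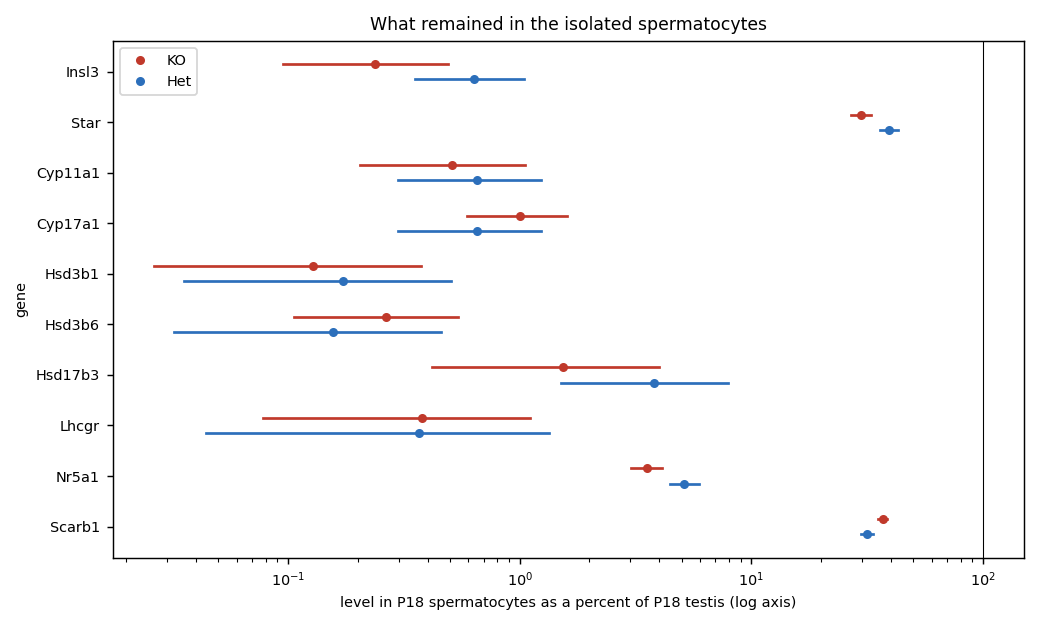
The x axis, on a log scale, gives the summed level in 3 spermatocyte libraries as a percent of that in 3 testis libraries at P18, with 95% exact intervals as lines, for KO (red, above) and Het (blue). Scarb1 and Star lie between 29.7% and 39.2%, and the 7 genes with few reads at 3.80% or below.

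Between P14 and P18 whole testis, Insl3 and Hsd3b6 were higher at P18 in both genotypes. Hsd3b6 and Hsd3b1 encode enzymes that make 3-keto steroids. This comparison spans 2 sets deposited in different units, so age cannot be told apart from the set. Of the 10 genes, 7 could be tested, since Cyp17a1, Hsd17b3 and Lhcgr had another gene length behind their P14 values. Levels in the next 2 paragraphs are on a scale shared by the 12 testis libraries.

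Hsd3b6 averaged 35.0 ± 5.08 in P18 and 7.11 ± 3.45 in P14 KO testes (SD, n = 3 each), a log2 difference of 2.34 ± 0.35 (SE, adjusted p = 0.000304, limma). In Het testes it averaged 26.7 ± 4.95 at P18 and 8.77 ± 3.04 at P14, a log2 difference of 1.58 ± 0.35 (adjusted p = 0.0024). The P18 libraries did not overlap the P14 libraries in either genotype. Insl3 averaged 112 ± 10.9 in P18 and 38.9 ± 15.6 in P14 KO testes, a log2 difference of 1.59 ± 0.32 (adjusted p = 0.00239). In Het it averaged 95.6 ± 6.86 at P18 and 37.5 ± 15.6 at P14, a log2 difference of 1.43 ± 0.32 (adjusted p = 0.00271). Again no P18 library lay within the P14 range. The Insl3 change carries the Jak3 overlap described above, and Jak3 itself averaged 13.3 ± 1.14 in P18 and 4.01 ± 1.56 in P14 KO testes. In P14 KO testes Jak3 was assigned 593, 354 and 242 reads, against 676, 399 and 268 for Insl3. In P18 spermatocytes, where Insl3 was nearly lost, Jak3 had 23, 27 and 29 reads in KO and 38, 20 and 64 in Het. Which gene the shared reads came from was not tested.

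Hsd3b1 differed less. Its log2 difference was 0.48 ± 0.14 in KO (adjusted p = 0.0213), a call lost when P14 KO replicate 2 or 3 or P18 KO replicate 1 or 2 was left out (adjusted p 0.0609 to 0.0804), and 0.01 ± 0.14 in Het (adjusted p = 0.97). Scarb1 was lower at P18 in Het, with a log2 difference of -0.32 ± 0.09 (adjusted p = 0.0114). In the values as deposited that difference was -0.13 and did not pass (adjusted p = 0.28). In KO its difference was -0.10 ± 0.09 (adjusted p = 0.388). Star (0.82 ± 0.44 in KO and -0.01 ± 0.44 in Het), Cyp11a1 (0.69 ± 0.32 and 0.29 ± 0.32) and Nr5a1 (0.05 ± 0.11 and -0.08 ± 0.11) did not pass the test in either genotype. In all, 3 of 7 genes rose in KO and 2 rose and 1 fell in Het. Among the 15898 genes tested, 17.8% rose and 25.4% fell in KO, and 29.9% rose and 31.4% fell in Het.

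The ratio of Hsd3b6 to Hsd3b1 within a library does not depend on the scaling between libraries. It was 1.34, 0.968 and 1.28 in P18 KO and 1.01, 1.11 and 1.25 in P18 Het testes, against 0.307, 0.539 and 0.174 in P14 KO and 0.471, 0.411 and 0.241 in P14 Het testes. Every P18 library lay above every P14 library. Over both genotypes the mean log2 ratio was 0.20 at P18 and -1.59 at P14, a difference of 1.79 (two-sided exact permutation test, 6 against 6 libraries, p = 0.00217, the smallest this design allows). Between KO and Het the ratio did not differ beyond the spread at P18 or P14 (exact p = 0.7 each, with 0.1 the smallest possible for 3 against 3).

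**Figure D3:**
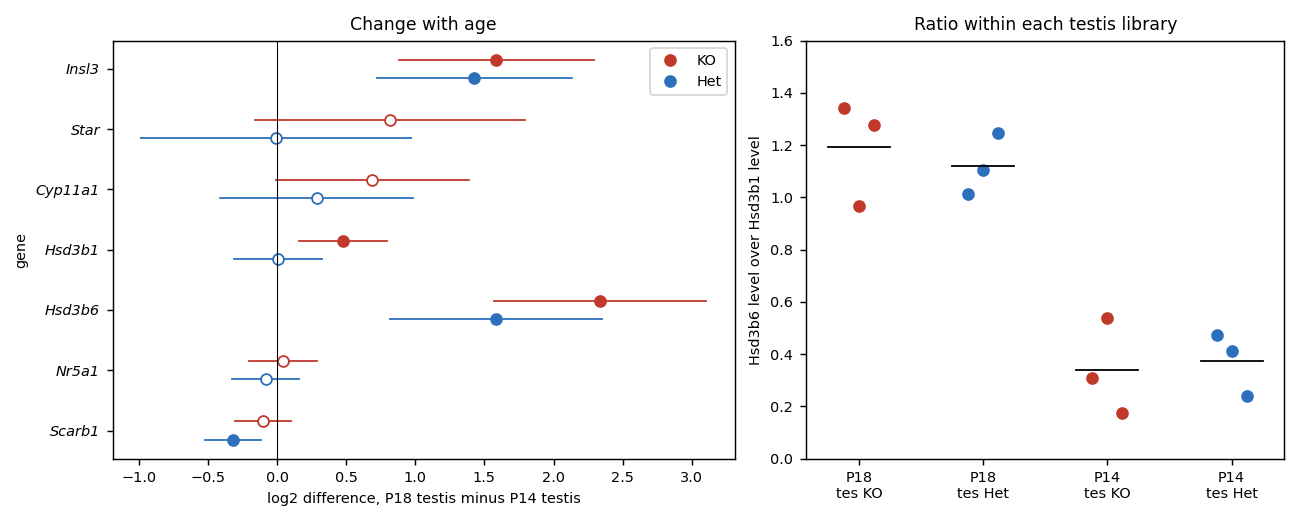
The left panel plots the log2 difference of P18 minus P14 testis with 95% intervals for the 7 genes tested, KO in red above Het in blue, with filled points for adjusted p under 0.05; the right panel plots the Hsd3b6 level over the Hsd3b1 level in each testis library. Hsd3b6 and Insl3 lie well right of 0 in both genotypes, and all ratios at P18 are at or above 0.968 and all at P14 at or below 0.539.

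At P18, KO and Het testes were compared to ask what loss of Zfp541 did to the Leydig transcripts in the intact organ. Only Hsd3b1 passed the test, 1 of 10 genes, while 5.31% of the 18786 genes tested rose and 17.4% fell. Differences were nonetheless mostly positive. Of the 10 genes, 7 had an unadjusted p under 0.05 with the higher level in KO (15.1% of all genes did), and 5 had every KO library above every Het library (20.8% of all genes). The median log2 difference was 0.31 over the 10 genes and 0.01 over all genes tested. In bulk RNA, fewer cells of a type and less RNA per cell cannot be told apart, and neither can their opposites.

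Hsd3b1 measured 33.5, 34.6 and 29.8 FPKM in KO and 23.4, 26.4 and 26.9 FPKM in Het testes. The groups did not overlap. The log2 difference was 0.35 ± 0.08 (SE, adjusted p = 0.0323, limma with Benjamini-Hochberg adjustment). The call was lost without Het replicate 1 (adjusted p = 0.0672) or 2 (0.0805), or KO replicate 1 (0.0872) or 2 (0.113), without the filter on low values (0.0637), and with libraries scaled to the Sertoli markers (0.532).

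Among the receptor and regulator, Lhcgr measured 2.96, 2.17 and 3.10 FPKM in KO and 2.21, 1.93 and 1.72 FPKM in Het testes. KO replicate 2 lay within the Het range, and the log2 difference was 0.40 ± 0.16 (adjusted p = 0.12). Nr5a1 measured 29.9, 31.4 and 31.3 FPKM in KO and 21.0, 26.6 and 28.5 FPKM in Het testes. The groups did not overlap, with Het replicate 1 the lowest, and the log2 difference was 0.29 ± 0.11 (adjusted p = 0.114).

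For cholesterol uptake and transport, Scarb1 measured 17.7, 18.1 and 19.6 FPKM in KO and 14.02, 15.3 and 16.4 FPKM in Het testes. The groups did not overlap and the log2 difference was 0.27 ± 0.08, just short of the threshold at an adjusted p of 0.0512. It passed in 5 of 15 alternatives. These were the values as deposited (0.0329), median-of-ratios scaling (0.045), voom (0.0246), 1 fit over 18 libraries (0.0435) and without Het replicate 3 (0.0331). Over all 15 the smallest log2 difference was 0.0126 and the highest adjusted p 0.917 (limma). Star measured 12.0, 6.64 and 14.3 FPKM in KO and 17.0, 6.78 and 9.96 FPKM in Het testes, with a log2 difference of 0.00 ± 0.40. The groups overlapped throughout, and replicate 2 was the lowest of both.

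The enzymes of the androgen chain varied in how tightly replicates held together. Cyp11a1, which cuts the side chain of cholesterol, had a log2 difference of -0.06 ± 0.26, and Cyp17a1, which makes the androgen precursors, 0.33 ± 0.49. Cyp17a1 measured 23.0, 7.63 and 22.5 FPKM in KO and 10.8, 8.93 and 20.2 FPKM in Het testes, so that 1 KO library lay below all Het libraries. Hsd3b6 measured 44.9, 33.5 and 38.0 FPKM in KO and 23.8, 29.2 and 33.5 FPKM in Het testes, meeting at the edge, with a log2 difference of 0.43 ± 0.16 (adjusted p = 0.0973). Hsd17b3, which makes testosterone from androstenedione, measured 4.69, 4.29 and 5.80 FPKM in KO and 3.73, 3.61 and 3.50 FPKM in Het testes. Its groups did not overlap and its log2 difference was 0.39 ± 0.12 (adjusted p = 0.0624). Insl3 measured 136, 111 and 125 FPKM in KO and 96.9, 107 and 106 FPKM in Het testes, also without overlap, with a log2 difference of 0.26 ± 0.09 (adjusted p = 0.0771).

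Markers of other cells moved in the same libraries. The summed level of 12 spermatocyte markers was 789 to 927 FPKM in KO and 1362 to 1977 FPKM in Het testes, and 7 of those 12 fell. The summed level of 18 Sertoli markers was 2735 to 2781 FPKM in KO and 2080 to 2515 FPKM in Het, 5 of 18 rose, and their median log2 difference of 0.27 was close to the 0.31 of the 10 genes. Of 10 macrophage markers tested, 6 rose and 1 fell. When each library was scaled to the Sertoli markers, the log2 differences of the 10 genes lay between -0.31 and 0.18 and none passed the test. In the values as deposited, which move the median of all genes by 0.11, 4 of the 10 passed, all higher in KO.

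Other genes of the pathway stood against the same background, in which 5.31% of all genes tested rose and 17.4% fell at P18. Of 15 other steroid enzymes and redox partners tested, 3 rose, among them Hsd17b10 (20.8 ± 1.23 FPKM in KO and 15.2 ± 1.27 FPKM in Het) and Fdxr, the reductase that feeds electrons to mitochondrial P450 enzymes (24.7 ± 1.75 and 18.4 ± 2.03 FPKM). Of 23 regulators and signalling genes, Kitl and Dhh rose by 0.26 ± 0.07 and 0.25 ± 0.06 on the log2 scale, and Crem fell by 0.84 ± 0.19. Kitl and Dhh are made by Sertoli cells and Crem by germ cells. Of 11 other Leydig markers, 3 rose, led by Fabp3 (0.67 ± 0.12) and Gsta3 (0.38 ± 0.08), and Gramd1b fell (-0.85 ± 0.19). Gramd1b RNA was not limited to Leydig cells here. It averaged 17.8 ± 8.52 RPKM in isolated Het spermatocytes, beside 14.4 ± 4.14 FPKM in Het testis. The Kitl call was lost in 8 of 14 alternatives. For Dhh 6 of 14 lost it and 1 more turned the sign. Under Sertoli scaling the differences were 0.000587 for Kitl and -0.0089 for Dhh. Calls were also lost in 4 of 15 alternatives for Hsd17b10, 7 of 15 for Fdxr, 5 of 15 for Crem and 3 of 15 for Fabp3. Those of Gsta3 and Gramd1b were lost in 6 of 15 and 6 of 13. Sertoli scaling ended the calls of Hsd17b10, Fdxr and Gsta3 and not those of Crem, Fabp3 and Gramd1b.

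At P14, none of the 10 genes passed the test between KO and Het testes, with adjusted p from 0.627 to 0.971 (limma), and none had an unadjusted p under 0.05. Over the 17688 genes tested, 0.0113% rose and 0.153% fell, and 8.81% had an unadjusted p under 0.05. Of the differences, 6 were negative and 4 positive, with a median of -0.22 (all genes 0.00). Those farthest from 0 were of Cyp17a1 and Star. Cyp17a1 measured 4.86, 4.08 and 0.756 RPKM in KO and 13.6, 2.26 and 9.09 RPKM in Het testes, a log2 difference of -1.20 ± 0.78 with an interval of -3.08 to 0.68. Star measured 5.31, 5.496 and 3.63 RPKM in KO and 11.6, 4.33 and 13.5 RPKM in Het testes, a log2 difference of -0.83 ± 0.41 with an interval of -1.82 to 0.15. For both genes the Het replicate 2 lay inside the KO range, while the other two Het libraries lay above every KO library.

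None of the remaining P14 differences passed the test. Cyp11a1 differed by -0.47 ± 0.31, Hsd3b6 by -0.34 ± 0.42, Hsd3b1 by -0.14 ± 0.16 and Nr5a1 by 0.15 ± 0.08, Scarb1 by 0.04 ± 0.09, Hsd17b3 by 0.05 ± 0.15 and Lhcgr by -0.30 ± 0.19. Insl3 measured 51.4, 33.3 and 22.7 RPKM in KO and 48.1, 34.8 and 19.4 RPKM in Het testes, with ranges that almost coincided. Intervals for Nr5a1 (-0.05 to 0.34) and Scarb1 (-0.18 to 0.26) were narrow, whereas that for Cyp17a1 was the widest of the 10. Of the spermatocyte markers, 2 of 9 tested fell at P14.

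The difference between the KO effects at the 2 ages was itself tested for the 7 genes with 1 gene length. All 7 differences were positive, from 0.13 (Nr5a1) to 0.82 ± 0.62 (Star), and none passed (limma, adjusted p 0.21 to 0.872). Hsd3b1 alone had an unadjusted p under 0.05 (0.0427), as did 21.7% of all genes. Of the 15898 genes, 0.34% had a higher and 7.52% a lower KO effect at P18. The sign of 2 of the 7 (Insl3 and Nr5a1) turned under Sertoli scaling.

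**Figure D4:**
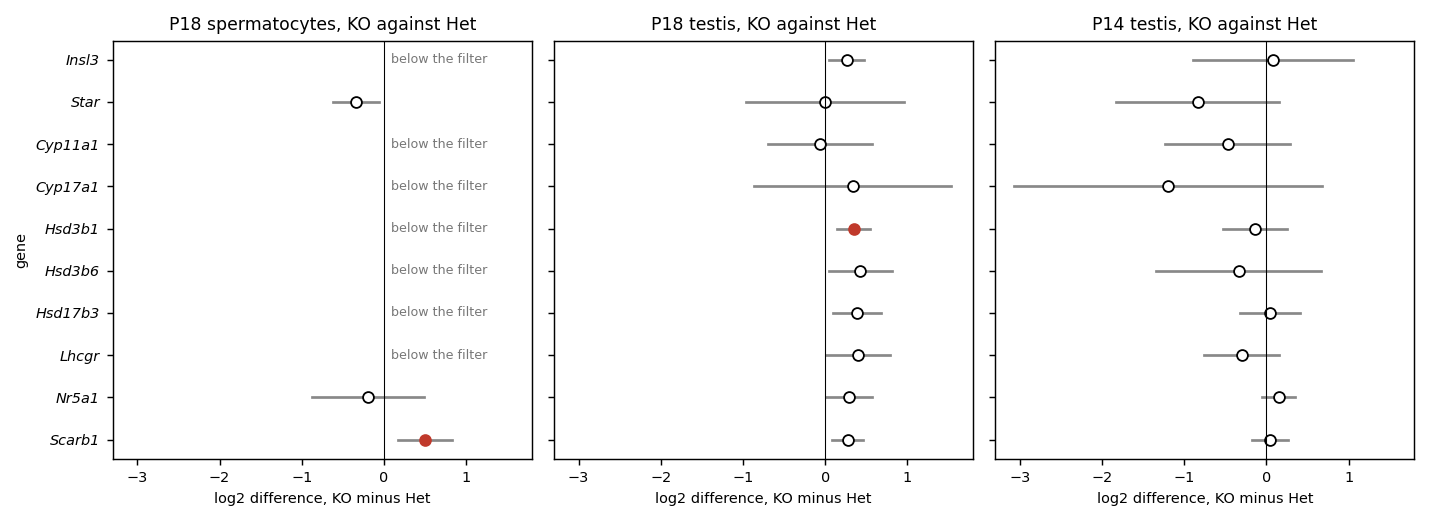
The log2 difference of KO minus Het with its 95% interval is plotted for each gene in P18 spermatocytes, P18 testis and P14 testis; red points have an adjusted p under 0.05. Hsd3b1 in P18 testis and Scarb1 in spermatocytes are the only red points, and the interval of Cyp17a1 is the widest in both testis panels.

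In isolated spermatocytes only 3 of the 10 genes reached the level needed for a test, and Scarb1 alone passed. Of the 15960 genes tested, 13.2% rose and 24% fell in KO. Scarb1 measured 5.72, 6.98 and 7.48 RPKM in KO and 4.78, 4.93 and 4.08 RPKM in Het spermatocytes. The groups did not overlap (every KO library was above every Het library for 24.7% of all genes tested), and the log2 difference was 0.50 ± 0.14 (adjusted p = 0.0298). The call was lost without Het replicate 1 (adjusted p = 0.0918) or 3 (0.0604), KO replicate 2 (0.114) or 3 (0.115), and without the filter (0.071).

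Star went the other way without passing the threshold: it measured 3.26, 3.04 and 3.08 RPKM in KO and 3.96, 4.04 and 4.28 RPKM in Het spermatocytes. The groups did not overlap (every KO library was below every Het library for 30.4% of all genes tested). The log2 difference was -0.34 ± 0.12 (adjusted p = 0.06, limma). It passed in 1 of 14 alternatives, voom on read counts (adjusted p = 0.0423). Over the 14 the difference ran from -0.406 to -0.176, with an adjusted p of up to 0.542 (limma). Nr5a1 measured 0.673, 1.02 and 1.49 RPKM in KO and 1.52, 1.57 and 0.774 RPKM in Het spermatocytes, an overlap with a log2 difference of -0.19 ± 0.29 (adjusted p = 0.629). The 7 genes below the filter had 49 reads in KO and 48 in Het libraries in all. They were not tested in this comparison, and a small genotype difference in them would be missed at this depth.

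Markers of other cell types also moved in these libraries. Of 12 spermatocyte markers 7 fell in KO spermatocytes, and of 10 spermatogonia markers 5 rose and 1 fell. The median log2 difference of 17 Sertoli markers was -0.39, with 0 past the threshold (limma). The part of these shifts in the Scarb1 and Star values was not tested. The difference between the KO effect in spermatocytes and that in testis was tested for all 10 genes and none passed (limma, adjusted p 0.239 to 0.943), although 2 had an unadjusted p under 0.05, as did 15.8% of all genes. Of 19979 genes, 0.115% had a higher and 2.08% a lower KO effect in spermatocytes. Of the 10 differences, 9 were negative, from -0.07 (Cyp11a1) to -0.91 ± 0.43 (Insl3), and that of Scarb1 was 0.14 ± 0.19. For the 7 genes below the filter, spermatocyte levels lay near the floor (Hsd3b1 averaged 0.0381 in KO and 0.0371 in Het). Their differences rest in large part on the testis values and tell little of a KO effect in spermatocytes. Hsd3b1 and Hsd17b3, the 2 with an unadjusted p under 0.05, are among these 7.

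Replicates of 1 testis group differed widely for some genes and hardly for others. The SD of the log2 deviations from group means over the 12 testis libraries was 0.99 for Cyp17a1, 0.61 for Star, 0.48 for Hsd3b6, 0.44 for Insl3 and 0.43 for Cyp11a1. It was 0.25 for Lhcgr, 0.19 for Hsd17b3 and Hsd3b1, 0.14 for Nr5a1 and 0.12 for Scarb1. For Insl3 and Hsd3b6 the spread lay mostly at P14. Deviations of Insl3 ran from -0.70 to 0.59 at P14 and from -0.15 to 0.13 at P18. Those of Hsd3b6 ran from -0.87 to 0.60 at P14 and from -0.26 to 0.23 at P18. P14 KO replicate 3 was the lowest library, by deviation, for Cyp11a1, Hsd3b6, Lhcgr and Scarb1, and P14 Het replicate 2 for Star, Cyp17a1, Hsd3b1 and Hsd17b3. In P18 KO replicate 2, Cyp17a1 (-1.01), Star (-0.62) and Cyp11a1 (-0.57) were low together while Hsd3b1 was not (0.09).

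**Figure D5:**
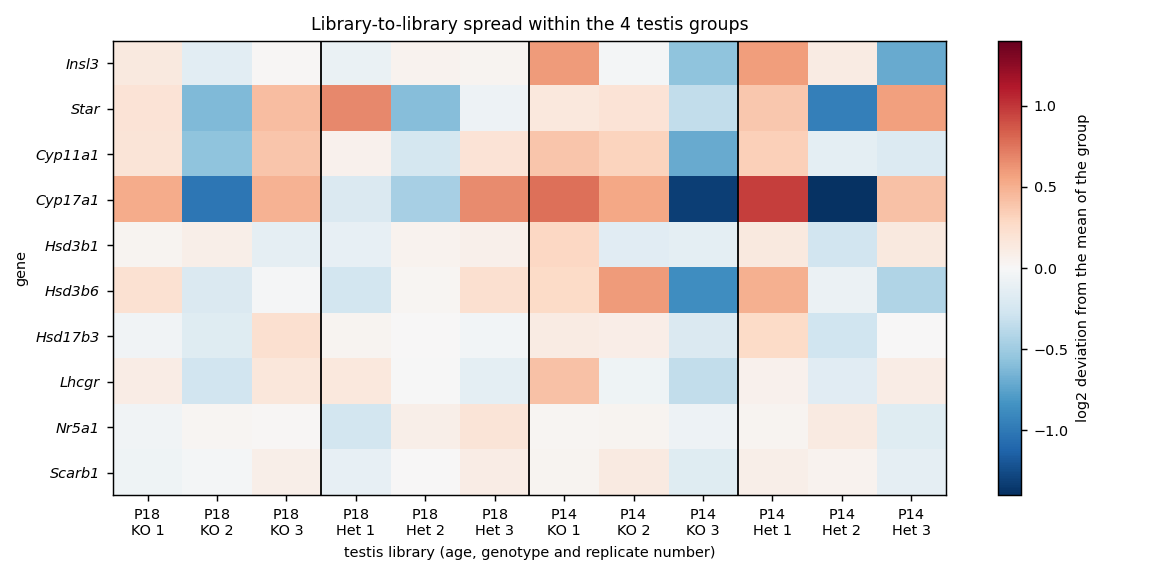
Rows are the 10 genes and columns the 12 testis libraries, grouped as P18 KO, P18 Het, P14 KO and P14 Het; the colour gives the log2 deviation from the mean of the group. Cyp17a1 and Star show the strongest colours, with Cyp17a1 at -1.38 in P14 Het replicate 2, while Nr5a1 and Scarb1 stay pale.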

How the data were processed

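Poly(A) RNA of 18 mouse libraries was measured, 3 in each of 6 groups assigned from the labels. The authors deposited RPKM (reads scaled to gene length and library size) for P14 testis and P18 spermatocytes. For P18 testis the authors deposited FPKM, the same measure counted in fragments. Per the submitters' processing notes, the tools were STAR 2.6.1a, CASAVA 1.9, edgeR 3.28.1 and featureCounts, and the build was GRCm38. A strand setting is not given in the sources used here. The 10 genes and all marker lists were chosen with earlier results of these data known.

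Each value multiplied by the merged exon length of its gene in the GRCm38 annotation gave whole reads (within 0.02) for 87.3% to 87.4% of values at P14 and 98.5% to 98.7% at P18. These reads served only for depth, percentages left after isolation and a voom alternative. Rows with a repeated symbol (190 at P14, 217 at P18) were dropped; they held no more than 0.3% of any library's total. Scaling between libraries followed trimmed means of M values (trims 30% and 5%). The test, on genes reaching 1 in 3 or more libraries, was limma 3.58.1 in R 4.3.3 on log2(value + 0.5), with an intensity trend and robust variances. Log2 differences are on that scale and understate those of low genes. P-values were two-sided and adjusted by Benjamini-Hochberg over all genes of a comparison, with a threshold of 0.05. KO was compared with Het in 3 fits of 6 libraries. Fractions and ages were compared in fits of 12 libraries. That made 9 comparisons with the interactions. The fits were tested on simulated data in which as many genes rose as fell. Those data could not test the scaling where more genes fell than rose, as in KO at P18. Figures used matplotlib 3.10.9 and Python 3.11.15.

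The 10 genes are given, by value or by range, in every comparison that tested them. From each other list at most the 2 genes that rose most and the 2 that fell most among those past the threshold are named. The KO against Het result for cholesterol supply genes at P18 in testis is not reported here. Alternatives were values as deposited, median-of-ratios scaling, scaling to the Sertoli markers (testis only), pseudocounts of 0.1 and 1, no filter, a replicate block, voom on reads, 1 fit of 18 libraries and leaving out each library. No library was a copy of another of its group.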

Additional observations from a re-analysis of the deposited data

Results flagged for a closer look

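Among the 4 lists of other steroid enzymes, cholesterol supply, regulators and other Leydig markers, 5 genes had a KO effect that differed between P18 spermatocytes and P18 testis (limma interaction, adjusted over 19979 genes). In that order of lists they were 2 of 15, 1 of 25, 1 of 23 and 1 of 12 tested, all with the lower KO effect in spermatocytes. Over all genes, 0.115% had a higher and 2.08% a lower KO effect there. None of the 10 steroid and hormone genes passed. The lists of other cell types also held such genes, 1 of 11 macrophage, 1 of 10 spermatogonia and 2 of 12 spermatocyte markers, all with the lower KO effect in spermatocytes. Each call below is given with the alternatives of processing, left-out libraries included, that ended it.

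Gramd1b, a sterol transport gene listed as a Leydig marker, had an interaction of -2.59 (adjusted p = 0.0108), with a KO effect of -3.34 in spermatocytes and -0.85 in testis. In spermatocytes it measured 1.20 ± 0.275 RPKM in KO and 17.8 ± 8.52 RPKM in Het. Cyb5a, the cytochrome b5 that assists Cyp17a1, had an interaction of -1.48 (adjusted p = 0.00627), with -1.22 in spermatocytes and 0.17 in testis. The interaction was lost in 1 of 18 alternatives for Gramd1b and 1 of 19 for Cyb5a, in both without spermatocyte KO replicate 2 (adjusted p = 0.0507 and 0.0502).

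Nr0b1, a nuclear receptor that restrains Nr5a1, had an interaction of -0.986 (adjusted p = 0.0411), with -0.65 in spermatocytes and 0.23 in testis. The interaction was lost in 16 of 20 alternatives and the effect in spermatocytes in 8 of 14. Fdxr had an interaction of -0.863 (adjusted p = 0.039), with -0.36 in spermatocytes and 0.42 in testis, of which only the testis value passed. The interaction was lost in 14 of 20 alternatives and the testis call in 7 of 15. Soat1, which makes cholesterol esters, had an interaction of -0.741 (adjusted p = 0.0326), with -0.51 in spermatocytes and 0.14 in testis. The interaction was lost in 10 of 20 alternatives and the effect in spermatocytes in 3 of 14.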

How the results depend on the processing

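For KO against Het at P18, 1 of the 10 genes passed in testis; 4 passed in the values as deposited, 2 each with median-of-ratios scaling, voom and 1 fit of 18 libraries (7 genes), 0 each without the filter, with the replicate block and under Sertoli scaling, and 0 to 2 with 1 library left out. In spermatocytes the count of 1 became 0 without the filter, 2 with voom, and 0 to 1 with 1 library left out. For P18 against P14 in KO, 3 became 6 as deposited. Each of the 10 genes stayed lower in spermatocytes than in testis under every alternative that tested it. The 1 fit of 18 libraries tested 7 of them. The cause of these moves was not tested. The sign turned for the following values, of which only Dhh had passed the test. At P14 these were Hsd17b3 (-0.016) and Scarb1 (-0.022) under Sertoli scaling, and with 1 library left out Hsd17b3 ran from -0.092 to 0.19, Insl3 from -0.26 to 0.38, Scarb1 from -0.020 to 0.13 and Hsd3b6 from -0.64 to 0.10. In P18 testis Star became 0.11 as deposited, 0.011 with median-of-ratios scaling and 0.10 in 1 fit (left out: -0.29 to 0.33), and Cyp11a1 0.052 and 0.035 as deposited and in 1 fit (left out: -0.25 to 0.22). Under Sertoli scaling Insl3 became -0.007, Dhh -0.0089, Cyb5a -0.092, Nr0b1 -0.033 and Soat1 -0.13. For genotype by fraction, Cyp17a1 became 0.11 with a pseudocount of 0.1 and 0.72 with voom (left out: -0.75 to 0.018), Hsd3b6 0.10 with voom, and Cyp11a1 ran from -0.36 to 0.12 left out. For age in Het, Star became 0.18 as deposited and 0.11 under Sertoli scaling (left out: -0.49 to 0.29), Nr5a1 0.11 and 0.032 (left out: -0.18 to 0.030), and Hsd3b1 -0.13 in 1 fit (left out: -0.13 to 0.081). For age in KO, Scarb1 became 0.21 as deposited and Nr5a1 -0.034 under Sertoli scaling. For genotype by age, Insl3 became -0.038 and Nr5a1 -0.066 under Sertoli scaling (Insl3 left out: -0.13 to 0.51).

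The replicate numbers share no stated source, and not every correlation of same-numbered KO and Het libraries in a set was over 0.1 (P14 testis 0.084 to 0.104, P18 testis -0.027 to 0.026, spermatocytes 0.055 to 0.24), so the pairing was not established. Every library correlated best with its own number at P14 and in spermatocytes and not in P18 testis, a hint from the data and not the design; with the replicate block Hsd3b1 in P18 testis had an adjusted p of 0.0745 and 2698 of all genes passed, against 4259 without it. Depth limits the 7 genes with few reads in spermatocytes, and the values as deposited shift the median of all genes by up to 0.29 (P18 against P14 in KO).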

Other observations

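Several genes around the steroid pathway differed between P18 and P14 testis. Of all genes tested, 29.9% were higher and 31.4% lower at P18 in Het, and 17.8% were higher and 25.4% lower in KO. Of 17 regulators and signalling genes tested, 11 were lower at P18 in Het and 1 was higher, while 9 were lower and 3 higher in KO. Igf1, a growth factor of the interstitium, averaged 6.52 ± 1.21 at P18 and 13.5 ± 2.03 at P14 in Het, and Pdgfra, a receptor on interstitial progenitors, 7.92 ± 1.59 and 14.8 ± 0.498 (SD, n = 3 each). Of 20 genes of cholesterol supply, 9 were lower at P18 in Het and 2 higher, while 6 were lower and 2 higher in KO. Idi1, an enzyme of the mevalonate route, differed by -1.82 ± 0.14 in KO and -1.48 ± 0.14 in Het. Of 8 other Leydig markers, 4 were higher at P18 in KO, and 3 were higher and 2 lower in Het. Ptgds, a prostaglandin D synthase, averaged 2.05 ± 0.299 at P18 and 0.488 ± 0.0755 at P14 in KO, and Klk1b21, one of a family of near-identical kallikrein genes, 1.35 ± 0.157 and 0.251 ± 0.103. Age cannot be told apart from the set in these values.

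In the isolated spermatocytes other genes of the pathway did not all follow the 10. Of all genes tested, 39.6% were lower than in testis in KO and 32.9% in Het. Of 15 other steroid enzymes and redox partners, 10 were lower than in testis in each genotype, and Por, the reductase that serves microsomal P450 enzymes, was higher, by 0.98 ± 0.11 in KO and 0.81 ± 0.11 in Het. Of 25 genes of cholesterol supply, 9 were lower and 9 higher in KO, and 8 were lower and 9 higher in Het. Of 12 other Leydig markers, 10 were lower in KO and 9 in Het, led by Mgst1 (-4.87 ± 0.20 in KO and -4.15 ± 0.20 in Het) and Aldh1a1 (-4.73 ± 0.31 and -4.18 ± 0.31).

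Over the 12 testis libraries, deviations from group means were set beside the mean deviation of the 10 genes for 8242 other genes. That mean was not standardized, so genes of wide spread, Cyp17a1 and Star first, weigh most in it. The 10 genes did not move as 1 set. Pearson between pairs of them ran from -0.60 (Star and Nr5a1) to 0.85 (Cyp11a1 and Cyp17a1). The 5 most alike were Soat1 (Pearson 0.96, Spearman 0.94), Csrp2 (0.94 and 0.94), Twf1 (0.92 and 0.86), Sec22b (0.89 and 0.82) and Ddx3x (0.88 and 0.83). These are descriptions without a p, since the genes share libraries and the closest were picked from all.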
